A study of Mus musculus with 9 samples.

Results

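The 9 genes described here encode cell surface receptors that raise or restrain insulin secretion: Glp1r, Gipr, Gcgr, Gpr119, Ffar1, Chrm3, Casr, Adra2a and Sstr3. They were taken by gene name from a table of 54876 genes, and each name matched 1 row. Expression was measured by RNA sequencing in MIN6 cells, a mouse insulinoma line labelled as pancreatic beta cells of C57BL/6 origin, after 24 h in medium with 0.1 (low), 1 (standard) or 20 (high) times the standard arginine concentration. Each medium had 3 libraries, and no genetic change is labelled in any of them. MIN6 is 1 tumour-derived line. The labels do not say that replicates came from separate cultures, so p-values reflect only how these libraries scatter, which could be technical scatter.

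All 9 are G protein-coupled receptors. Receptors that couple to Gs raise cyclic AMP and amplify glucose-stimulated insulin release, receptors that couple to Gq release calcium from stores through phospholipase C, and receptors that couple to Gi lower cyclic AMP and damp exocytosis. The incretin hormones GLP-1 and GIP act through the first route, acetylcholine and long-chain fatty acids through the second, and adrenaline and somatostatin through the third. Arginine is itself a classical insulin secretagogue.

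In low arginine, Adra2a rose about 3.20-fold and Sstr3 fell to 0.332 of its standard level, so that these 2 Gi-coupled receptors changed in opposite directions. The mean of the incretin receptor Gipr fell by 45.5%, that of Glp1r fell by 13.9% and that of the fatty acid receptor Ffar1 fell by 17.5%; the calls of Glp1r and Ffar1 were lost in TPM and under quantile normalization. Chrm3 did not pass the test. High against standard arginine gave no call among the 6 receptors that could be tested, where 0.309% of all genes tested were called. Casr was below the filter on low values, and Gcgr and Gpr119 were at or near 0 reads.

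Values are FPKM, fragments scaled to gene length and to library size, so levels of different genes are set side by side as far as the deposited gene lengths hold; those of Glp1r and Adra2a, 1480 and 3801 bases, are shorter than their 5811 and 4832 exonic bases in GENCODE M21. Reads assigned to genes, rebuilt from the table, numbered 21550637 to 26300872 per library. The library size behind the FPKM was 1.06, 1.05 and 1.08 times these reads in the low arginine libraries. It was 0.983, 0.962 and 1.02 times them in the standard and 0.969, 0.969 and 0.994 times them in the high ones. Beside a scaling to reads in genes, the deposited scaling thus lowers low arginine levels relative to the other media. Its origin was not tested. Of 12 beta cell markers, 10 had a mean of at least 1 FPKM, with Ins2 highest, while Slc2a2, which encodes the glucose transporter GLUT2, averaged 0.0103 FPKM across all libraries. Of 3 endothelial genes, Cdh5 was at 0 in every library, and Kdr had 1 read and Pecam1 92 reads over all libraries. Pecam1 averaged 0.128 FPKM with low, 0.0291 with standard and 0.0342 with high arginine. Of 3 immune genes, Ptprc and Adgre1 were at 0 in every library, and Cd68 had 88 reads (mean 0.324 FPKM). None of the 5 stromal markers reached a mean of 1 FPKM.

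The receptors with the strongest changes, Adra2a and Sstr3, both have short elements of the same letters close to their RefSeq transcription starts. Promoter windows were read from RefSeq for 8 of the 9 receptors, as the 250 bases upstream of each start in the build GRCm38.p6, with a second start for Sstr3; Gipr has no entry. The stretches below show the E-box CACGTG and the core TGACG of the cyclic AMP response element in capitals for both genes, in 30 bases each, and for Glp1r the GC boxes GGGCGG, or CCGCCC on the other strand, in capitals.

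Adra2a, chr19:54045175-54045204, plus strand: ttccCACGTGggggcTGACGccggctgctc

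Sstr3, chr15:78544349-78544378, minus strand: tcCACGTGtcctggagatggggggTGACGt

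Glp1r, chr17:30901617-30901816, plus strand: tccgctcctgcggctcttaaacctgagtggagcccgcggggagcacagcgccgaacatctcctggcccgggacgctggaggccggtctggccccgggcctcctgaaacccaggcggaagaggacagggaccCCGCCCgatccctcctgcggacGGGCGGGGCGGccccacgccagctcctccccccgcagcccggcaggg

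Of 32851 promoter windows, 6.02% hold CACGTG and 17.8% hold TGACG on either strand. Both are held anywhere in the window by 1.53%, and within 30 bases by 0.63%. CACGTG and its pairing with TGACG were singled out after the windows had been read, and 30 bases is the length of the stretches shown. The 0.63% is thus a share for a rule fitted to these 2 windows. GENCODE M21 exons overlap both stretches. The second Sstr3 window holds neither element, and the Gpr119 window holds TGACG without CACGTG. The 3 GC box matches of Glp1r include an overlapping pair, and 32.7% of all windows hold at least 1. Both strands were also searched for the TATA box TATAAA, the box CCAAT, the homeodomain core TAATTA, and the general E-box CANNTG, of which CACGTG is 1 form. The window of Gcgr, which is barely present here, holds GC boxes as well, at -77 and -51 from its start. CANNTG matched in Glp1r, Ffar1, Casr, Adra2a and Sstr3 and is held by 66.2% of all windows. CCAAT, held by 33.8%, matched in the second Sstr3 window. Adra2a also holds a GC box and, 29 bases upstream of its start, the TATA box. Of all windows 12.4% hold TATAAA anywhere in the window on either strand. The full cyclic AMP response element TGACGTCA, held by 1.55% of all windows, matched in none of the 9 windows of these receptors. The same holds for the amino acid response element TGATGNAA, held by 3.45% of all windows. These matches are letters in a window and say nothing of which factor binds.

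**Figure D1:**
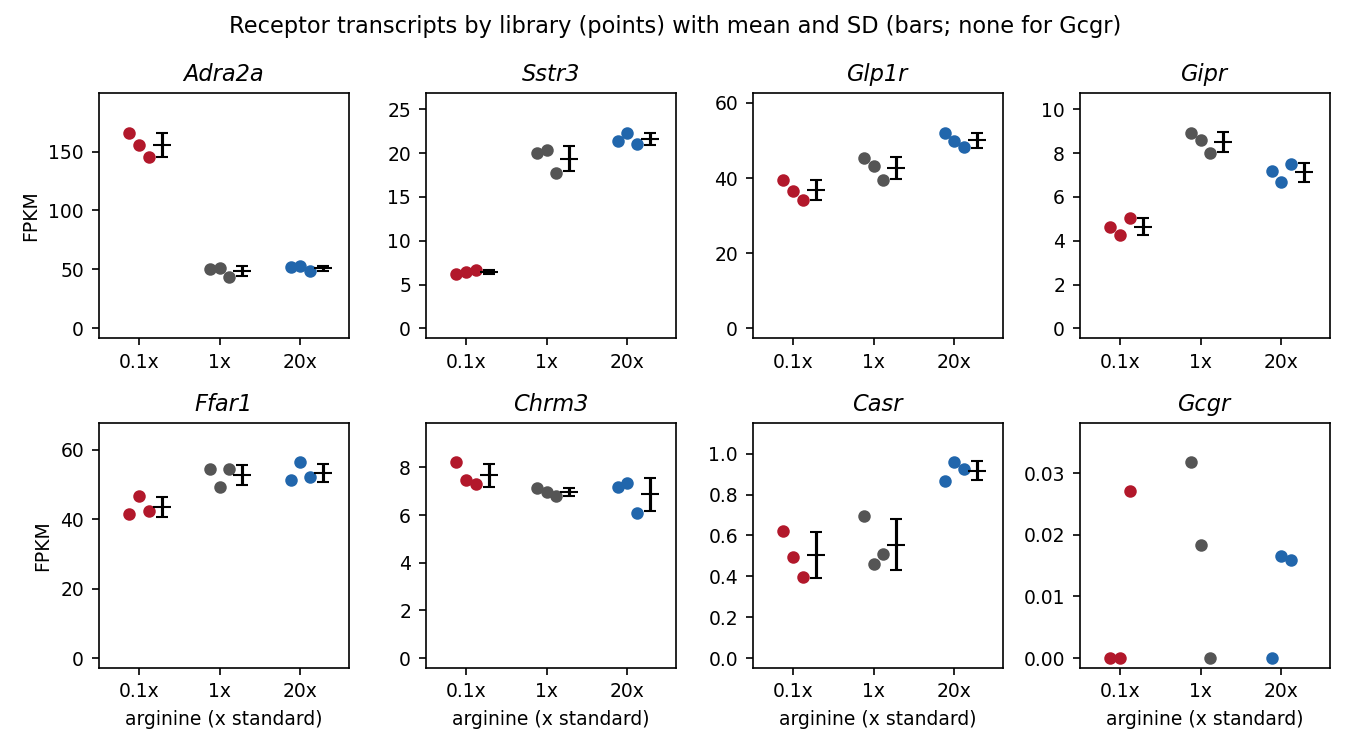
Level in FPKM of 8 receptors (linear axes from 0, 1 panel per gene) in each of 3 libraries per medium at 0.1, 1 and 20 times standard arginine, as points, with the mean and SD as bars except for Gcgr, which had at most 2 reads in a library. The 3 low arginine libraries lie above all others for Adra2a (146 to 166 FPKM) and below all others for Sstr3 (6.20 to 6.65 FPKM); Gpr119 had 0 reads in every library and is not drawn.

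Adra2a encodes the alpha-2A adrenergic receptor, through which adrenaline and noradrenaline inhibit insulin release (chromosome 19, 54045182 to 54048982, plus strand). Its level was 166, 155 and 146 FPKM in the low arginine libraries, 50.4, 51.6 and 43.6 FPKM in the standard ones and 51.8, 52.6 and 48.5 FPKM in the high ones. The low arginine libraries were all far above the other 6, which overlapped each other. The mean went from 48.6 ± 4.30 to 156 ± 10.2 FPKM (SD, n = 3 each), a log2 change of 1.66 (SE 0.08, limma with Benjamini-Hochberg adjustment over 12300 genes, adjusted p 4.65e-08). Against standard, high arginine gave a log2 change of 0.07 with a 95% interval of -0.10 to 0.24 (adjusted p 0.71). Between 3729 and 16567 reads lay behind each of these values.

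Sstr3 encodes 1 of the receptors for somatostatin, the islet peptide that inhibits secretion of insulin and glucagon (chromosome 15, 78537008 to 78544685, minus strand). Libraries of low arginine had 6.20, 6.45 and 6.65 FPKM, those of standard arginine 20.1, 20.3 and 17.7 FPKM, and those of high arginine 21.4, 22.3 and 21.1 FPKM. The 3 media did not overlap, although high and standard arginine lay close together. Its log2 change was -1.45 (SE 0.06, adjusted p 3.57e-08) in low and 0.15 (SE 0.06, adjusted p 0.30) in high against standard arginine. The unadjusted p of the second was 0.0339.

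The somatostatin system was measured on the ligand side as well. Sst, which encodes somatostatin, rose from a standard level of 5790 ± 391 to 9758 ± 1342 FPKM (log2 change 0.75, SE 0.09, adjusted p 4.44e-05) where arginine was low; without the filter on low values its adjusted p was 0.25. Sstr2, a further somatostatin receptor, stood at 0.591 ± 0.154 FPKM with standard and 1.95 ± 0.170 FPKM with low arginine, the opposite direction to Sstr3; it passed the filter on low values only through the low arginine libraries. Sstr5, which was below the filter and was chosen after its values were seen, had 0.239 ± 0.0858 FPKM in low arginine, against 0.556 ± 0.0999 in standard and 0.627 ± 0.156 FPKM with high. Sstr1 averaged 0.0310 FPKM and Sstr4 had 0 reads. Sstr3 was thus the most abundant somatostatin receptor transcript in each medium, by the group means. Delta and PP cell markers summed to 8719 to 11314 FPKM in low and 5435 to 6208 FPKM in standard arginine, nearly all of it Sst, with 2 of 5 at a mean of at least 1 FPKM and the delta cell factor Hhex at a mean of 0.00241 FPKM. The part of such cells in the Sstr3 and Sst results was not tested. In bulk RNA, fewer cells of a type and less RNA per cell cannot be told apart.

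Glp1r encodes the receptor for the incretin GLP-1 and is the target of GLP-1 receptor agonist drugs (chromosome 17, 30901867 to 30936510, plus strand). Low arginine libraries had 39.4, 36.6 and 34.1 FPKM, standard ones 45.2, 43.3 and 39.4 FPKM, and high ones 52.1, 49.9 and 48.1 FPKM. Low and standard arginine met at their edges, and the high arginine libraries were above the other 6. In low arginine Glp1r fell by 0.21 on the log2 scale (SE 0.07, adjusted p 0.024). That call was lost without low replicate 2 or 3 or standard replicate 1 or 2 (adjusted p 0.058, 0.10, 0.090 and 0.064), without the filter on low values (0.051), in TPM (0.23) and under quantile normalization (0.17). High against standard arginine gave 0.23 with a 95% interval of 0.07 to 0.38, an unadjusted p of 0.00847 and an adjusted p of 0.20, so it did not pass. High against low arginine did pass, at 0.44 (SE 0.07, adjusted p 0.000308), and kept its call under all 19 alternatives run. Its level relative to other genes depends on the short deposited gene model, whereas its changes between media do not use the length.

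Gipr, the receptor for the other incretin, GIP, was the less abundant of the pair (chromosome 7, 19156061 to 19166127, minus strand). It measured 4.63, 4.25 and 5.04 FPKM with low, 8.93, 8.59 and 8.0 FPKM with standard and 7.19, 6.67 and 7.49 FPKM with high arginine. All 3 media were apart, with standard arginine highest. The log2 change was -0.75 (SE 0.07, adjusted p 6.03e-06) in low against standard and 0.53 (SE 0.07, adjusted p 7.97e-05) in high against low arginine. High against standard arginine gave -0.23 with a 95% interval of -0.38 to -0.07 (unadjusted p 0.00805, adjusted p 0.19) and did not pass; among the 19 alternatives it passed only with array weights, at -0.29 (adjusted p 0.031), and the adjusted p went up to 0.55.

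Gcgr, the glucagon receptor, and Gpr119, a receptor for lipid amides that couples to Gs, were barely present (chromosome 11, 120530699 to 120538986, and chromosome X, 48667979 to 48674478). Gcgr had 0, 0 and 2 reads in the low arginine libraries, 2, 1 and 0 in the standard ones and 0, 1 and 1 in the high ones, all below the 3 reads that a count of 0 still allows. Gpr119 had 0 reads in all 9 libraries. For Gcgr, 3 reads correspond to 0.0406 to 0.0552 FPKM, depending on the library, a limit that covers counting error only. Differences between media were not detectable for either gene at this depth.

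Ffar1, also known as GPR40, senses long-chain fatty acids and couples to Gq (chromosome 7, 30857390 to 30861564, minus strand). Its values were 41.4, 46.7 and 42.4 FPKM with low, 54.4, 49.2 and 54.5 FPKM with standard and 51.3, 56.4 and 52.2 FPKM with high arginine. The low arginine libraries were below all of the others, and standard and high arginine overlapped. Low against standard arginine gave a log2 change of -0.27 (SE 0.07, adjusted p 0.0049), which was not called in TPM, at -0.15 (adjusted p 0.087), or under quantile normalization, at -0.15 (adjusted p 0.070). High against standard arginine gave 0.02 with a 95% interval of -0.13 to 0.17. High against low arginine gave 0.29 (adjusted p 0.0035), again not called in TPM (0.17, adjusted p 0.062) or under quantile normalization (0.15, adjusted p 0.082).

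Chrm3, the muscarinic receptor through which vagal acetylcholine acts on beta cells, moved little (chromosome 13, 9875486 to 10360847, minus strand). It stood at 8.22, 7.46 and 7.32 FPKM with low, 7.13, 6.97 and 6.79 FPKM with standard and 7.16, 7.35 and 6.08 FPKM with high arginine. The low arginine libraries were above the standard ones by a narrow margin and overlapped the high ones. The log2 change in low against standard arginine was 0.12 with a 95% interval of -0.04 to 0.28 (adjusted p 0.17). In TPM it was 0.25 and was called (adjusted p 0.014), as was high against low arginine at -0.27 (adjusted p 0.0091; -0.14 and adjusted p 0.11 in the deposited values).

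Casr, the calcium-sensing receptor, couples to Gq and Gi and was below the filter of 1 FPKM in at least 3 libraries (chromosome 16, 36493696 to 36562141, minus strand). Low arginine libraries had 77, 64 and 53 reads (0.622, 0.492 and 0.399 FPKM). Standard ones had 79, 45 and 54 reads (0.697, 0.460 and 0.509 FPKM), and high ones 95, 104 and 105 reads (0.866, 0.958 and 0.926 FPKM). Its 3 high arginine libraries were above the other 6. High over standard arginine was 1.65-fold in mean FPKM, with an exact two-sided permutation p of 0.1, the smallest that 3 against 3 samples allow. In the fit without the filter on low values, Casr passed in high against low arginine (log2 change 0.35, adjusted p 0.011) and not in high against standard arginine (0.30, adjusted p 0.30).

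Of the 6 tested receptors, 5 were called in low against standard arginine, 1 higher and 4 lower, where 62.2% of the 12300 genes tested were called, 30.3% higher and 31.9% lower. In TPM, 61.6% of all calls in this comparison were higher, against 48.7% in the deposited values, and the median of all genes shifted by 0.11 on the log2 scale. With so many genes called, a count of 5 in 6 says little about these receptors. The calls of Adra2a, Sstr3 and Gipr also stood in TPM, and those of Glp1r and Ffar1 did not. In high against standard arginine limma called 0 of the 6, with 0.309% of all genes called; 3 of the 6 had an unadjusted p under 0.05, as did 14.3% of all genes. With voom weights 0 were called as well. Of the 6, 3 did not overlap between high and standard arginine, where 18.5% of all genes did not. High against low arginine called 5 of 6, 4 higher and 1 lower, where 61.5% of all genes were called, 32.3% higher and 29.2% lower; in TPM 39.5% of all calls in this comparison were higher, against 52.5%. Any pair of these comparisons shares 3 libraries, so their changes are not independent and are only given side by side.

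**Figure D2:**
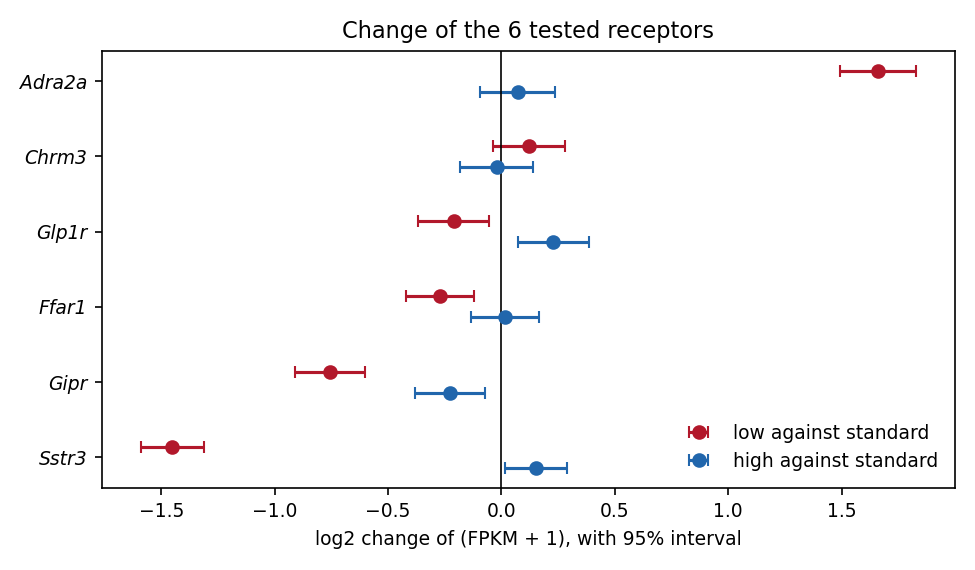
Log2 change of FPKM + 1 for the 6 tested receptors in low (red) and high (blue) against standard arginine, as points with 95% intervals from limma. Adra2a (1.66) and Sstr3 (-1.45) lie farthest from 0 in low arginine; no high arginine change passed the test after adjustment.

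The order of the receptors by level differed between media. In standard arginine Ffar1, Adra2a and Glp1r led with means of 52.7, 48.6 and 42.6 FPKM; each overlapped the next in range, while Ffar1 and Glp1r were apart. The place of Glp1r in every medium rests on its deposited length of 1480 bases. Sstr3 (19.4), Gipr (8.50) and Chrm3 (6.96 FPKM) followed, each apart from its neighbours, and Casr, Gcgr and Gpr119 came last. In high arginine the ranges of the top 3 all overlapped, at 53.3 FPKM for Ffar1, 51.0 for Adra2a and 50.03 for Glp1r, and Gipr (7.12) and Chrm3 (6.87 FPKM) overlapped. In low arginine Adra2a was first at 156 FPKM, apart from Ffar1 at 43.5 and Glp1r at 36.7 FPKM, and Sstr3 (6.43 FPKM) stood below Chrm3 (7.67 FPKM). Neighbours in low arginine were all apart in range down to Casr, while Gcgr and Gpr119 overlapped at 0.

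Ratios within a library do not depend on how libraries are scaled. The Adra2a to Glp1r ratio was 4.21, 4.24 and 4.27 with low, 1.12, 1.19 and 1.11 with standard and 0.995, 1.05 and 1.01 with high arginine. It was higher in every low arginine library than in any other, and its spread between replicates was small beside that gap. The Sstr3 to Adra2a ratio was 0.0415 ± 0.00416 (SD, n = 3) with low arginine, 0.399 ± 0.00594 with standard and 0.424 ± 0.0106 with high. The Gipr to Glp1r ratio was 0.127 ± 0.0179 with low arginine, 0.200 ± 0.00302 with standard and 0.142 ± 0.0117 with high, so it was highest in standard arginine. For each of these ratios, the exact two-sided permutation p of low against standard and of high against standard arginine was 0.1, the smallest that 3 against 3 allow. The Ffar1 to Glp1r ratio did not separate low from standard arginine (1.19 ± 0.124 and 1.24 ± 0.127, exact permutation p 0.7).

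**Figure D3:**
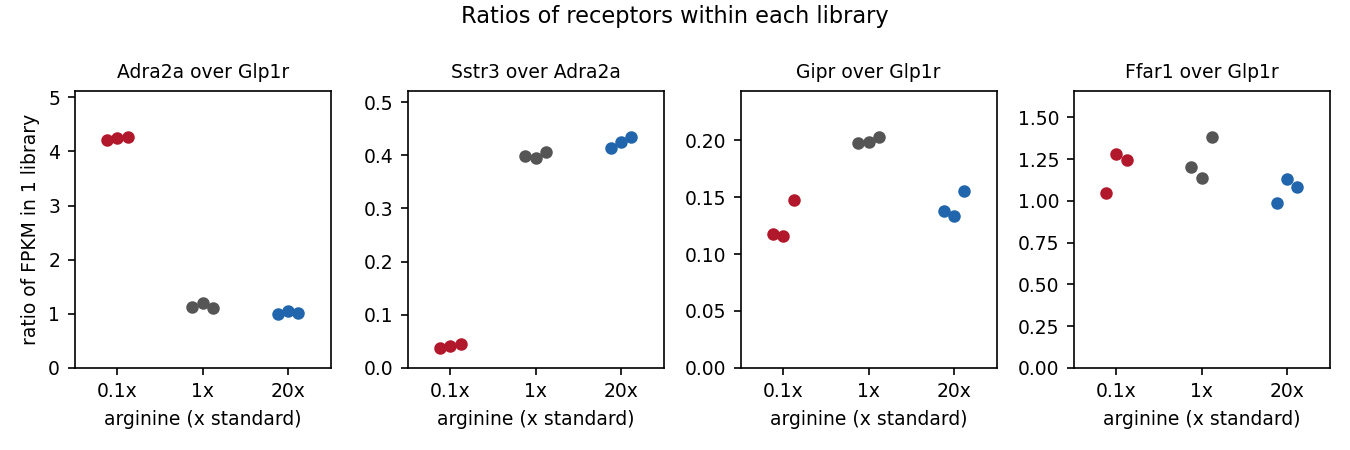
Ratios of FPKM within each library (points, linear axes from 0) for 4 receptor pairs at 0.1, 1 and 20 times standard arginine. The Adra2a to Glp1r ratio lies between 4.21 and 4.27 in low arginine and between 0.995 and 1.19 in the other 6 libraries, and the Gipr to Glp1r ratio is highest in standard arginine.

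Summed by coupling, the Gi receptors Adra2a and Sstr3 held 63.5 ± 0.969% of the FPKM of all 9 receptors (SD, n = 3) with low arginine, 37.9 ± 1.94% with standard and 38.0 ± 0.270% with high. Glp1r and Gipr together held 16.2 ± 0.331%, 28.5 ± 0.629% and 29.96 ± 1.04% in the same order, and Ffar1 with Chrm3 held 20.1 ± 1.31%, 33.3 ± 2.42% and 31.5 ± 1.00%. All shares are of the same total, so the high Adra2a level in low arginine makes the other shares smaller. In FPKM, Glp1r and Gipr summed to 41.3 ± 2.51, 51.1 ± 3.45 and 57.2 ± 1.88 in that order. Ffar1 and Chrm3 summed to 51.2 ± 2.63, 59.7 ± 3.00 and 60.2 ± 3.07 FPKM. The sum over all 9 was 255 ± 12.6 FPKM with low arginine, 179 ± 8.28 with standard and 191 ± 5.91 with high, and Adra2a made up 156 of the 255 FPKM. The size of each share, and of each sum with Glp1r in it, depends on the short deposited length of Glp1r.

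Genes whose profile over the 9 libraries was most like that of a receptor were sought by Pearson's r of log2(FPKM + 1). They were taken from 7039 tested genes with a full gene symbol and a mean of at least 5 FPKM. For Adra2a these were Clic4 (r 0.999) and Pdx1 (0.998), for Sstr3 Slc25a3 and Ifitm2 (both 0.999), and for Gipr S100a11 (0.987) and Vmac (0.984). Glp1r was closest to Nfic (0.994) and Abcc8 (0.989), the latter encoding the sulfonylurea receptor subunit of the beta cell potassium channel; Ffar1 was closest to Endod1 (0.982) and Kcnip3 (0.973), and Chrm3 to Auts2 (0.917) and Gak (0.905). High values of r were common for some receptors: 759 genes had an r over 0.95 with Adra2a, 1196 with Sstr3 and 154 with Gipr. With Glp1r there were 21, with Ffar1 12 and with Chrm3 0. Abcc8 averaged 125 FPKM with low, 145 with standard and 169 FPKM with high arginine. It was picked for its likeness to Glp1r in these libraries, so the order it shares with Glp1r follows from that choice.

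The wider receptor pathway was described with 9 lists of 271 names, of which 142 genes were tested. In low against standard arginine 56 of the 142 rose and 40 fell, 67.6% called against the background of 62.2%. In high against standard arginine limma called 0 of the 142, with 20 at an unadjusted p under 0.05, against 0.309% and 14.3% of all genes. Nr4a2, a CREB-responsive nuclear receptor, was the nearest, at -0.42 (SE 0.08, adjusted p 0.065), and it was called with voom weights (-0.48, adjusted p 0.030).

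**Figure D4:**
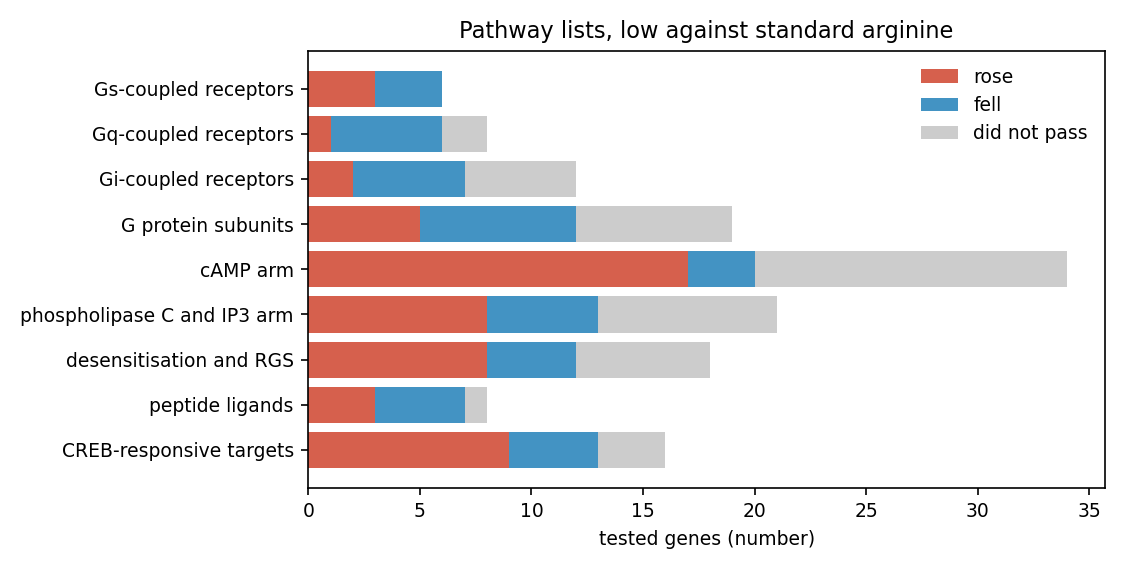
Number of tested genes in each of 9 pathway lists that rose, fell or did not pass in low against standard arginine (stacked bars from 0). In the list of the cyclic AMP arm 17 genes rose and 3 fell of 34 tested, 58.8% called against 62.2% of all genes, 30.3% higher and 31.9% lower. The lists of other receptors hold 6, 8 and 12 tested genes.

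Other receptors moved both ways in low arginine. Among Gs-coupled receptors 3 of 6 tested rose and 3 fell, with a median log2 change of 0.12 against 0.00 over all genes. That is 100% called, against 62.2% of all genes, 30.3% higher and 31.9% lower. The corticotropin-releasing hormone receptor Crhr1 rose by 1.02 (SE 0.07), the VIP and PACAP receptor Vipr2 by 0.79 (SE 0.07) and the adenosine receptor Adora2a by 0.49 (SE 0.06), while Gpr3, a constitutively active receptor, was at -0.64 (SE 0.08). Of 8 Gq-coupled receptors 1 rose, or 2 without low replicate 1 or standard replicate 2, and 5 fell (median -0.34). With all libraries 75% were called against 62.2% of all genes. The riser was Cckar, a cholecystokinin receptor, which went from 160 ± 5.97 to 413 ± 30.01 FPKM (log2 change 1.36, SE 0.07), above Adra2a in level, while the transcript of its ligand, Cck, fell from 8343 ± 936 to 3621 ± 149 FPKM. The nucleotide receptors P2ry6 and P2ry1 fell by 0.91 and 0.46 and the thrombin receptor F2r by 0.59. Of 12 Gi-coupled receptors 2 rose and 5 fell (median -0.14), 58.3% called against 62.2% of all genes. Htr1d, a serotonin receptor, rose by 1.04. Sstr2 was at 0.89 and was not tested when any of low replicates 1, 2 or 3 was left out, which left 1 rise. Galr3, a galanin receptor, and Cnr1, a cannabinoid receptor, fell by 0.73 and fell by 0.61. Galr3 shares exon sequence with Gcat on the same strand, so its values are uncertain whether or not counting used the strand. Gpr3 and P2ry1 share exon sequence with genes on the other strand. Their values are uncertain because nothing says whether counting used the strand.

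Of 19 tested G protein subunits 5 rose and 7 fell, 63.2% called against 62.2% of all genes. In TPM, where 61.6% of the calls over all genes were higher, 9 rose and 5 fell. Among alpha subunits of the Gi family, Gnai2 rose by 0.26 (SE 0.06, adjusted p 0.0039) and Gnao1 by 0.43 (SE 0.07, adjusted p 0.00043), while Gnai1 and Gnai3 did not pass (0.22 and 0.12, adjusted p 0.050 and 0.23). Gnaz, a further member of that family, fell by 0.14 (SE 0.05, adjusted p 0.044) and lost its call under 12 of the 19 alternatives, among them every single library left out except low replicate 2 and standard replicate 3 (adjusted p 0.055 to 0.14 where the call was lost so). Gnas, the Gs alpha subunit, was at 0.14 (SE 0.11, adjusted p 0.31) and Gna11 of the Gq class at 0.02 (adjusted p 0.81). Gnaq fell by 0.19 (SE 0.06, adjusted p 0.012), a call lost in TPM (-0.07, adjusted p 0.32), under quantile normalization (-0.13, adjusted p 0.084) and without low replicate 3 (-0.16, adjusted p 0.056). Of the gamma subunits, Gng5 rose by 1.15, Gng4 rose by 0.83 and Gng3 fell by 0.70. Gng3, at a mean of 0.885 FPKM with low arginine, passed the filter on low values only through the standard and high arginine libraries. Gnas, Gnao1 and Gng3 overlap exons of genes on the other strand and are uncertain for the same reason.

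In the cyclic AMP arm 17 of 34 tested genes rose and 3 fell, with a median log2 change of 0.18. That is 58.8% called, against 62.2% of all genes, 30.3% higher and 31.9% lower. In TPM 20 genes of this arm rose and 3 fell, and without standard replicate 2 the falls numbered 5. The adenylyl cyclase Adcy1 rose by 0.75 (SE 0.07), the protein kinase A catalytic subunit Prkacb by 0.83 (SE 0.06), the small GTPase Rap1b by 0.54 (SE 0.06) and Pde4b, a phosphodiesterase that degrades cyclic AMP, by 0.89 (SE 0.05). The risers named thus include a maker, transducers and a degrader of the messenger. Of 21 genes of the phospholipase C arm 8 rose, or 5 without low replicate 1 or standard replicate 2, and 5 fell (median 0.09), 61.9% called against 62.2% of all genes. Dgke, a diacylglycerol kinase, and Prkca, a protein kinase C, rose by 0.70 and 0.42, and the phospholipase Plcb3 and the kinase Dgkg were at -0.47 and -0.45. Dgke, Prkca and Dgkg overlap other genes on the opposite strand.

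Among 18 tested genes of desensitisation and RGS proteins, which speed up G protein inactivation, 8 rose and 4 fell (median 0.16), 66.7% called against 62.2% of all genes. Rgs16 rose by 1.26 (SE 0.11), Rgs7 by 0.39 (SE 0.06) and the receptor accessory protein Ramp1 by 0.74 (SE 0.07), and Rgs10 was at -0.84 (SE 0.08). Peptide ligands included Gcg, the precursor of glucagon and GLP-1, which fell from 25.7 ± 3.53 to 16.3 ± 1.58 FPKM (change of -0.62 on the log2 scale, SE 0.10), and Npy at -0.50 (SE 0.08), a call lost under quantile normalization (-0.15, adjusted p 0.071). Of 8 tested ligands 3 rose and 4 fell, 87.5% called against 62.2% of all genes. Ucn3, which encodes urocortin 3, is among the 4, at 0.188 ± 0.0809 FPKM with low and 0.880 ± 0.313 FPKM with standard arginine. Of the 142 list genes tested, 3 (Sstr2, Gng3 and Ucn3) had a medium with every library under 1 FPKM and so passed the filter only through the others. Gip, which encodes the ligand of Gipr, had 18 reads over all 9 libraries. Alpha cell markers summed to 260 to 341 FPKM in low and 891 to 992 FPKM in standard arginine, mostly Ttr, with 2 of 6 at a mean of at least 1 FPKM; their part in the Gcg result was not tested.

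CREB-responsive genes, which cyclic AMP induces in many cells, gave 9 rises and 4 falls among 16 tested (median 0.28), 81.2% called against 62.2%. Irs2, an insulin receptor substrate, rose by 1.07 (SE 0.07) and Junb by 1.40 (SE 0.10), while Sik1, a kinase that feeds back on CREB coactivators, and Vgf, a secretory granule peptide precursor, were at -0.96 (SE 0.07) and -0.86 (SE 0.09). Genes of this list thus moved in both directions in the same libraries. Irs2, Junb and Rgs16 overlap exons of genes on the opposite strand.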

How the data were processed

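The members and lists were chosen with earlier results of these data known. RNA of 9 libraries was sequenced from a directional kit, per the labels' protocols. The authors deposited FPKM per gene and library with the gene length. CASAVA 1.8, HISAT2 2.0.5 and featureCounts 1.5.0-p3 are named in the submitters' processing notes; no source used here gives the strand setting. The notes name mm9; of 54409 gene IDs also found in GENCODE M21, 98.26% had its GRCm38 start and end, and coordinates are given as GRCm38.

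Multiplying FPKM by gene length gave whole reads for 100% of values under 2000 reads (tolerance 0.01 reads), from which reads per gene were rebuilt. Genes with at least 1 FPKM in at least 3 of 9 libraries, 12300, were analysed as log2(FPKM + 1) in limma 3.58.1 (R 4.3.3), with a trended prior variance and group as the only term over all 9 libraries. On this scale the fold change of a low gene is understated. Tests are two-sided, with p-values Benjamini-Hochberg adjusted over all genes, threshold 0.05. The procedure was tested on simulated data in which a small part of the genes changed and library sizes were known. In low against standard arginine 62.2% of genes were called, so the simulation does not measure false calls there. Replicates differed beyond sampling noise in every pair (chi-square per degree of freedom 2.68 to 13.6). No member shared exon sequence with another gene in GENCODE M21. Named list genes are up to 4 called per list with the smallest p in low against standard arginine, plus the G protein subunits and ligands of the members. Nr4a2, Gnaz, Ucn3, Sstr1, Sstr4 and Sstr5 were named outside this rule. Alternatives covered pseudocount, filter, scaling, weights, the libraries fitted, the variance trend, a replicate block and leaving out each library.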

Additional observations from a re-analysis of the deposited data

How the results depend on the processing

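Among receptor changes recomputed under the alternatives, 333 stayed on their side of the threshold, 11 lost a call, 4 gained one and 0 reversed a called direction. Of those for called list genes, 3396 kept it and 186 lost it. Adra2a, Sstr3 and Gipr kept their calls in low against standard arginine under all 19 alternatives, at 1.58 to 1.85, -1.59 to -1.42 and -0.88 to -0.70. Receptors called in low against standard arginine numbered 3 under quantile normalization and 4 to 5 when a library was left out. In high against standard arginine 1 was called with array weights, Gipr. Genes called in that comparison, 38, became 6 without a filter, 4 with only the groups compared, 1323 with array weights, 74 with voom weights and 0 to 61 when a library was left out (0 without any of standard replicate 2, high replicate 2 and high replicate 3; 10, 13, 13, 19 and 61 without standard replicate 1, high replicate 1, low replicate 3, low replicate 2 and standard replicate 3). List genes called there numbered 1 with a mean of at least 5 FPKM, in TPM, with voom weights and without standard replicate 3, each time Nr4a2, 0 to 1 when a library was left out, and 9 with array weights. With a mean of at least 5 FPKM, which tests fewer genes, 61 list genes were called in high against low arginine and 61 in low against standard. The cause of the other shifts was not tested.

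With the replicate number as a block, 88 genes were called in high against standard arginine and 1 list gene, Nr4a2. The main fit did not treat replicate numbers as pairs. Of 9 same-number correlations of deviations, 6 were over 0.1 (-0.036 to 0.24), while different-number ones ran from -0.26 to 0.14. Whether libraries of the same number share an effect was not tested. Depth limits Gcgr and Gpr119, and few reads limit Casr.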
